A study of Bombus terrestris audax with 20 samples.

Results

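Genes whose products pattern wings and set the growth of the imaginal tissues were followed through the larval life of the bumblebee Bombus terrestris audax. They are the 4 features of the deposited table whose products are cadherin-related tumor suppressor (called fat here), fat-like cadherin-related tumor suppressor homolog (fat-like), homeotic protein spalt-major-like (spalt-major-like) and protein vestigial (vestigial). They were chosen by product name, with earlier results of these data known. The table holds 14817 features in all, of which 597 had a product name that could be read. Every one of the 4 had a value above 0 in all 17 libraries and entered the tests, which used no filter on low values. A filter at a mean of 1, run as an alternative, left out vestigial and kept the other 3.

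Wings and much of the adult cuticle of an insect grow inside the larva as imaginal discs, pouches of epithelium that divide while the larva feeds and unfold at metamorphosis. Both bumblebee castes are winged, and queens are larger than workers. In Drosophila, Fat is a giant cadherin at the cell surface that restrains growth through the Hippo pathway and orients cells within the epithelium. Fat-like cadherins (Fat2 in Drosophila) are its relatives, known for aligning the movement and the actin fibres of epithelial cells. Spalt-major is a zinc finger transcription factor switched on in the centre of the wing disc by the BMP ligand Dpp, where it helps to place the veins. Vestigial is a transcriptional cofactor that, with Scalloped, gives disc cells their wing identity, and it also has a role in flight muscle. These roles come from the fly and are given as background.

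The study asked how the female larvae of both caste pathways differ at each stage and how this changes as larvae grow. Whole female larvae were pooled by colony, instar and caste fate, and their mRNA was sequenced. Early-instar (first and second instar), mid-instar (the third instar) and late-instar (the fourth instar) larvae were queen-destined (EQ, MQ and LQ) or worker-destined (EW, MW and LW). MW had 2 libraries, after the authors removed MW1 as unlike its replicates, and the other 5 phenotypes had 3. The spread within MW may therefore be understated. Queen-destined larvae came from colonies whose queen had been removed and worker-destined larvae from colonies that kept theirs, so that caste and the presence of the queen cannot be told apart, and no colony gave both castes. The animals carried no genetic change and received no agent. The stages are defined by instar and not by age in days.

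The values are normalised abundances: read counts that the authors divided by feature length and then quantile-normalised. How many reads stand behind each value is therefore unknown. The product names and the positions in the genome assembly Bter_1.0 place fat (LOC100651028, listed as NC_015762.1_4664243_4730184) on NC_015762.1 from 4664243 to 4730184, spalt-major-like (LOC100642338, NC_015770.1_15321123_15390013) on NC_015770.1 from 15321123 to 15390013, and vestigial (LOC100651612, NC_015773.1_10648073_10725251) on NC_015773.1 from 10648073 to 10725251. The fourth gene, fat-like (LOC100644909, NW_003565928.1_2276_4989), lies on the unplaced scaffold NW_003565928.1 from 2276 to 4989. The positions are the start and end of the whole feature, and its exons and strand are not given in the sources used here. The spans of fat, spalt-major-like and vestigial, at 65942, 68891 and 77179 bases, stand far above the median of 4087 bases over annotated features, whereas that of fat-like is 2714 bases. Whether this short feature holds the whole fat-like gene or a part of it is not known.

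All 4 genes lay at the low end of the table. The mean over the 17 libraries was 10.5 for fat, 7.65 for fat-like, 1.96 for spalt-major-like and 0.629 for vestigial, against a median of 118 over all features. These means put fat at percentile 8.65 of all features, fat-like at 6.35, spalt-major-like at 1.65 and vestigial at 0.176. Multiplying an abundance by the span of the feature, in units of 1000 bases, gives a rough idea of the reads behind it if that span was the length the authors corrected for. The product ran from 358 to 1077 for fat, from 81.2 to 285 for spalt-major-like, from 25.4 to 97.5 for vestigial and from 7.11 to 35.2 for fat-like. On that rough scale fat-like rested on the fewest reads although its abundance ranked second.

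Differences were tested with limma on log2(abundance + 20), fitted to every feature in the 17 libraries at once, with 1 mean per phenotype and 0.05 as the threshold for the Benjamini-Hochberg adjusted p over the 14817 features. Because 20 exceeds the abundance of every member in every library, it shrinks their log2 fold changes, and those on log2(abundance + 1) are printed beside them. The p-values measure the spread between pooled libraries. Product names were read only from the part headed EQ of a list from the study, and the named genes lean to EQ above EW. In the lists used below, the early-instar caste difference had a median of 0.15 for wing factors, 0.13 for signalling and 0.18 for growth control. Over all features the median was -0.024, so the shares over all features are not a matched background for the named genes. In whole larvae, fewer cells of a type and less RNA per cell cannot be told apart.

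**Figure D1:**
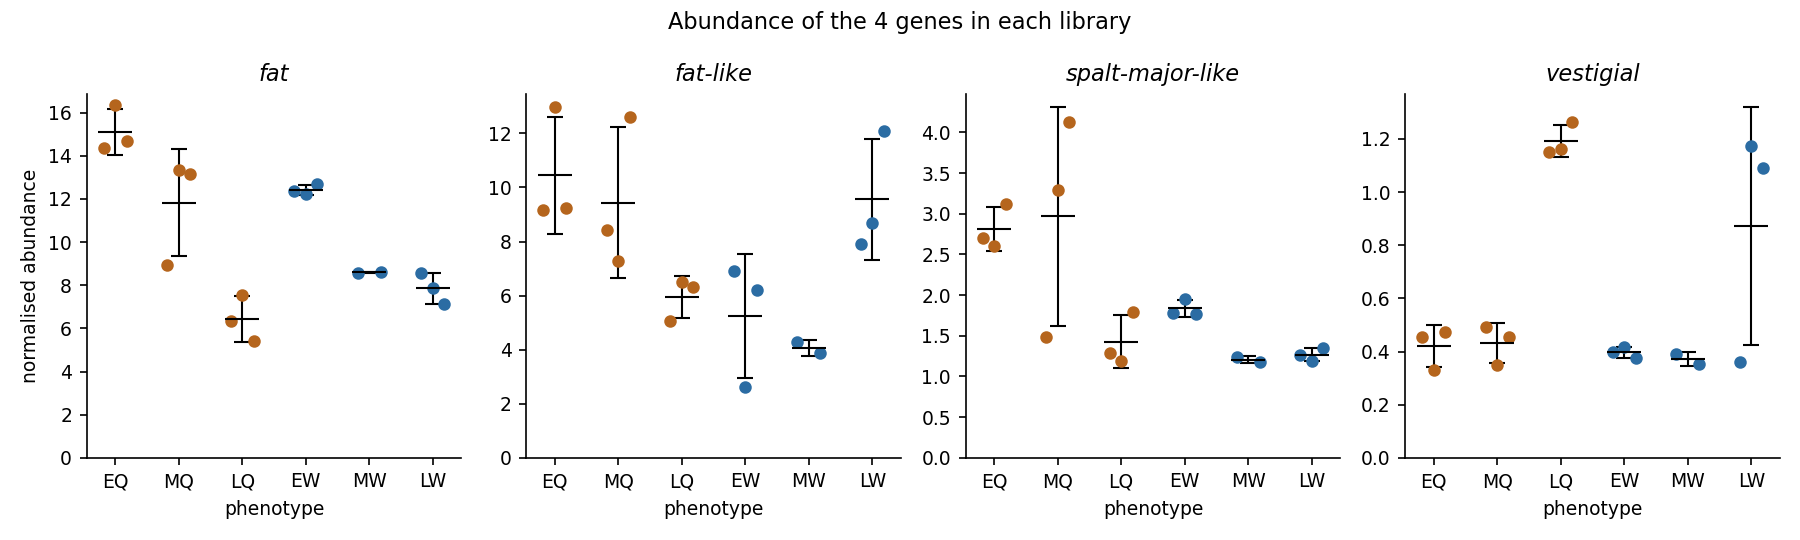
Normalised abundance (vertical axis, starting at 0, with its own scale for each gene) of the 4 genes in the 6 phenotypes. Each point is a library, orange for queen-destined and blue for worker-destined larvae, and the black bars give the mean and its SD. The points of fat fall from early to late instars in both castes, those of fat-like fall in queen-destined and rise in worker-destined larvae, and vestigial stands near 1.2 in 5 of the 6 late-instar libraries and near 0.4 elsewhere.

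Expression of fat fell as larvae grew, in both castes. In queen-destined larvae the abundances were 14.3, 16.3 and 14.7 in EQ1 to EQ3, 8.95, 13.4 and 13.1 in MQ1, MQ2 and MQ4, and 6.33, 7.56 and 5.42 in LQ1, LQ2 and LQ4. In worker-destined larvae they were 12.3, 12.2 and 12.7 in EW1 to EW3, 8.58 and 8.61 in MW2 and MW3, and 8.57, 7.88 and 7.14 in LW1 to LW3. Every late-instar library was thus below every early-instar library of its caste, as for 28.5% of all features in queen-destined and 25.7% in worker-destined larvae, and in both castes the group means decreased at each step.

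The mean of fat went from 15.1 ± 1.07 (SD, n = 3) in EQ to 11.8 ± 2.49 (SD, n = 3) in MQ and 6.44 ± 1.07 (SD, n = 3) in LQ. In worker-destined larvae it went from 12.4 ± 0.235 (SD, n = 3) in EW to 8.60 ± 0.0187 (SD, n = 2) in MW and 7.86 ± 0.720 (SD, n = 3) in LW. From EQ to LQ the log2 fold change was -0.41 ± 0.055 (SE; limma adjusted p = 4.82e-05), or -1.12 with an offset of 1 (adjusted p = 9.18e-05). From EW to LW it was -0.22 ± 0.055 (SE; limma adjusted p = 0.00676), or -0.60 with an offset of 1 (adjusted p = 0.0105). Both calls held without any 1 library.

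The larger share of the decrease in queen-destined larvae came late. From MQ to LQ the log2 fold change of fat was -0.27 (limma adjusted p = 0.00220), while EQ to MQ, at -0.14, did not pass (limma adjusted p = 0.0875). Neither step passed alone in worker-destined larvae, in which the log2 fold change was -0.18 from EW to MW (limma adjusted p = 0.148) and -0.038 from MW to LW (limma adjusted p = 0.693). The early to late change of queen-destined larvae minus that of worker-destined larvae was -0.19 (limma adjusted p = 0.321), so the steeper fall in queen-destined larvae was not shown to differ from that in worker-destined larvae.

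Between the castes, EQ was above EW and MQ above MW in every library for fat, with means 1.22 times and 1.37 times as high. Over all features this held for 5.51% in early and 25.1% in mid instars, a background not matched to the named genes. Late-instar ranges overlapped, from 5.42 to 7.56 in LQ and from 7.14 to 8.57 in LW. The offset fold change of the study, which sets the lowest library of the higher caste against the highest of the lower caste as a log2 ratio after adding 20, was 0.072 at the early and 0.017 at the mid instar. None of the 3 caste differences passed limma (adjusted p = 0.880, 0.153 and 0.453 in early, mid and late instars). Library MQ1 held the lowest MQ value of fat, and without it the mid-instar difference was 0.22 (limma adjusted p = 0.0399). Leaving out the lowest library of the higher group widens a difference. Over all fits without 1 library it ran from 0.12 to 0.22, and only the one without MQ1 passed.

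Falls of this kind were common. Over all features 24.6% were called lower in LQ than in EQ and 29.8% higher (54.3% in either direction), and 20.3% were called lower in LW than in EW and 21.3% higher (41.7% in either direction). Among the markers of other tissues of the whole larva, summed abundance over 5 muscle genes fell alongside fat, from between 3623 and 3676 in EQ to between 1883 and 2219 in LQ, and from between 3206 and 3431 in EW to between 1547 and 2644 in LW. Of these 5 genes, 4 were called lower in LQ than in EQ and 3 lower in LW than in EW, and none was at 0 in any library. The 3 epidermal markers summed to between 1179 and 1380 in EQ and between 464 and 937 in LQ, with 2 of 3 called lower, but their ranges overlapped between EW (961 to 998) and LW (680 to 1370), with none called. Among these, cuticle protein 2-like was at 0 in at least 1 library. Hexamerin, the fat body marker, ran from 5751 to 6522 in EQ, 2143 to 4938 in LQ, 3194 to 4841 in EW and 3384 to 4626 in LW. The 3 nervous system markers summed to between 251 and 281 in EQ, 291 and 311 in LQ, 199 and 225 in EW, and 238 and 266 in LW, and the sums of 3 gut proteases overlapped between early and late instars in both castes. The markers lean to EQ as well. Their early-instar caste difference had a median of 0.12 for muscle, 0.33 for epidermis, 0.15 for the nervous system and 0.47 for gut, and was 0.56 for hexamerin. Over all features it was -0.024. Marker falls from EQ to LQ are therefore not a fair match for those from EW to LW or for all features. The part of tissue make-up in the fall of fat was not tested.

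Expression of fat-like, the other cadherin, went in opposite directions in the castes. In queen-destined larvae the abundances were 9.17, 13.0 and 9.25 in EQ1 to EQ3, 8.44, 7.28 and 12.6 in MQ1, MQ2 and MQ4, and 5.07, 6.49 and 6.31 in LQ1, LQ2 and LQ4. In worker-destined larvae they were 6.91, 2.62 and 6.19 in EW1 to EW3, 4.27 and 3.87 in MW2 and MW3, and 7.91, 8.67 and 12.1 in LW1 to LW3. Each LQ library was below each EQ and each MQ library, and each LW library was above each EW and each MW library. Over all features, LQ was below EQ in this way for 28.5% and below MQ for 23.1%, and LW was above EW for 24.8% and above MW for 26.4%.

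The order of the castes therefore turned round in the group means. Its early part, EQ above EW, is the order to which the named genes lean. The ranges of fat-like did not overlap at any stage: queen-destined larvae were higher in early instars (mean 10.5 ± 2.17 against 5.24 ± 2.30, SD, n = 3 each) and in mid instars (9.44 ± 2.80, SD, n = 3, against 4.07 ± 0.286, SD, n = 2). Worker-destined larvae were higher in late instars, with 9.56 ± 2.22 against 5.96 ± 0.772 (SD, n = 3 each). The offset fold changes of the nearest libraries were 0.12, 0.17 and -0.076, where a negative sign means higher in worker-destined larvae. With 2 or 3 libraries a phenotype such ranges often separate: over all features, every queen-destined library was above every worker-destined library for 5.51% in early and 25.1% in mid instars, and every worker-destined library was above every queen-destined library for 9.66% in late instars.

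None of these caste differences of fat-like passed limma. The log2 fold change, queen-destined minus worker-destined, was 0.27 in early (adjusted p = 0.876), 0.29 in mid (adjusted p = 0.0746) and -0.19 in late instars (adjusted p = 0.216). Over all features limma called a caste difference for 0.00675% in early, 8.04% in mid and 4.55% in late instars. Without MQ2, the lowest MQ library for fat-like, the mid-instar difference was 0.34 (adjusted p = 0.0437). Over all fits without 1 library it ran from 0.21 to 0.34, and only the one without MQ2 passed.

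The changes between stages of fat-like passed narrowly. From EQ to LQ the log2 fold change was -0.23 ± 0.083 (SE; limma adjusted p = 0.0315), or -0.71 with an offset of 1 (adjusted p = 0.0492). From EW to LW it was 0.23 ± 0.083 (SE; limma adjusted p = 0.0400), or 0.82 with an offset of 1 (adjusted p = 0.0345). From MW to LW it was 0.29 ± 0.093 (SE; limma adjusted p = 0.0342), a step for which 14.5% of all features were called higher and 10.6% lower. From MQ to LQ it was -0.18 (limma adjusted p = 0.105).

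Single libraries decided these calls for fat-like. The fall from EQ to LQ no longer passed without EQ2 (-0.17, adjusted p = 0.132), LQ1 (-0.20, adjusted p = 0.0937) or LQ4 (-0.24, adjusted p = 0.0570). The rise from EW to LW no longer passed without EW2 (0.15, adjusted p = 0.174), EW3 (0.26, adjusted p = 0.0512), LW2 (0.25, adjusted p = 0.0628) or LW3 (0.17, adjusted p = 0.164), nor without MW2 or MW3, which are outside that contrast (adjusted p = 0.0507 and 0.0508). The rise from MW to LW was lost without MW2 (adjusted p = 0.132), MW3 (0.147), LW2 (0.0577) or LW3 (0.127), and with colony as a fixed block (0.29, adjusted p = 0.0510). All these are limma fits, and the sign stayed the same in each.

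Whether the castes changed differently was tested directly. The caste difference of the early to late change of fat-like was -0.46 ± 0.12 (SE; limma adjusted p = 0.118), and that of the mid to late change was -0.47 ± 0.12 (SE; limma adjusted p = 0.0616). Neither passed the threshold over all features, of which 0.553% and 2.47% did. The mid to late difference passed without MQ2, the lowest MQ library for this gene (-0.52, limma adjusted p = 0.0281). It passed in no other fit without 1 library, and over these fits it ran from -0.52 to -0.40. Of the 13 other alternatives, 10 left it short of the threshold. Colony as a random block was among the 3 in which it passed (-0.47, adjusted p = 0.0389). With an offset of 1 both kept their sign, at -1.53 and -1.60 (adjusted p = 0.146 and 0.0701). For fat the same differences were -0.19 and -0.23 (adjusted p = 0.321 and 0.161), with a fall in both castes.

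The transcription factor spalt-major-like had its highest means in early- and mid-instar queen-destined larvae. The abundances were 2.70, 2.61 and 3.11 in EQ1 to EQ3, 1.49, 3.29 and 4.13 in MQ1, MQ2 and MQ4, and 1.29, 1.19 and 1.80 in LQ1, LQ2 and LQ4. In worker-destined larvae they were 1.79, 1.96 and 1.77 in EW1 to EW3, 1.23 and 1.18 in MW2 and MW3, and 1.26, 1.19 and 1.35 in LW1 to LW3. All EQ libraries were above all EW libraries and all MQ libraries above both MW libraries, whereas LQ and LW overlapped. The shares of all features were 5.51% for EQ above EW and 25.1% for MQ above MW. Since the named genes lean to EQ above EW, these shares are not a matched background.

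MQ1 stood apart from the other MQ libraries for this gene, as it did for fat. The mean of spalt-major-like was 1.53 times as high in EQ as in EW and 2.46 times as high in MQ as in MW. On log2(abundance + 20) the caste differences were 0.063 in early (limma adjusted p = 0.880) and 0.11 in mid instars (adjusted p = 0.113), and with an offset of 1 they were 0.42 (adjusted p = 0.887) and 0.78 (adjusted p = 0.0675). Without MQ1, the lowest MQ library, the mid-instar difference on log2(abundance + 20) was 0.16 (limma adjusted p = 0.0227). Over all fits without 1 library it ran from 0.077 to 0.16, and only the one without MQ1 passed.

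The fall of spalt-major-like in queen-destined larvae depended on the offset. From EQ to LQ the log2 fold change was -0.090 (limma adjusted p = 0.0552) with an offset of 20 and -0.65 (adjusted p = 0.0212) with an offset of 1. From MQ to LQ it was -0.099 (adjusted p = 0.0504) and -0.65 (adjusted p = 0.0293). In worker-destined larvae the early to late change was -0.038 (adjusted p = 0.437) and -0.32 with an offset of 1 (adjusted p = 0.252). With an offset of 20, leaving out MQ1 or MQ4 took the early to late change of queen-destined larvae past the threshold (adjusted p = 0.0169 and 0.0329), as leaving out MQ1 or LW1 did for the mid to late change (adjusted p = 0.00435 and 0.0462). The replicate block did so too, with adjusted p of 0.0303 and 0.0425 for the number as a fixed term and 0.0361 and 0.0326 for colony as a random term. The caste difference of the early to late change was -0.052 (adjusted p = 0.682), so the castes were not shown to differ in it.

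The wing cofactor vestigial was the least abundant of the 4 genes and the only one with its highest mean in late-instar queen-destined larvae. In early and mid instars the abundances were 0.455, 0.330 and 0.475 in EQ1 to EQ3, 0.398, 0.417 and 0.375 in EW1 to EW3, 0.492, 0.348 and 0.455 in MQ1, MQ2 and MQ4, and 0.390 and 0.352 in MW2 and MW3. In late instars they were 1.15, 1.16 and 1.26 in LQ1, LQ2 and LQ4, and 0.359, 1.17 and 1.09 in LW1 to LW3. The castes overlapped at every stage, and LW1 stayed with the younger larvae while the other 5 late-instar libraries stood apart.

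The mean of vestigial was 1.19 ± 0.0617 (SD, n = 3) in LQ and 0.874 ± 0.448 (SD, n = 3) in LW. With an offset of 20 and the values as deposited no change of vestigial passed, with log2 fold changes of 0.054 from EQ to LQ (limma adjusted p = 0.0821) and 0.033 from EW to LW (adjusted p = 0.305). Without LW1, which is in neither group, EQ to LQ had an adjusted p of 0.0359 and MQ to LQ one of 0.0497. With weights for each library EQ to LQ, EW to LW and MW to LW passed (adjusted p = 0.0358, 0.0135 and 0.0403), and with quantile normalisation again over all features EQ to LQ did (adjusted p = 0.0493). With an offset of 1 the change was 0.63 from EQ to LQ (adjusted p = 0.00707) and 0.62 from MQ to LQ (adjusted p = 0.0120), comparisons in which 54.9% and 39.9% of all features were called at that offset. From EW to LW it was 0.39 (adjusted p = 0.0807) at that offset, and the caste difference of the early to late change was 0.23 (adjusted p = 0.684).

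The rise of vestigial moved with a property of the libraries. The 5 late-instar libraries in which it was high listed between 90 and 153 features at 0, and the other 12 libraries, LW1 among them, between 11 and 53. Counting from the lowest value, vestigial ranked between 258 and 323 in those 5 libraries and between 36 and 112 in the others. Quantile normalisation sets a value by its rank. Its neighbours in level moved with it: 19 annotated features, vestigial among them, lay between 0.3 and 0.6 in all 11 early- and mid-instar libraries, 16 of them were above 0.6 in all 5 of the libraries with many zeros, and 18 were under 0.6 in LW1. The medians over these 19 features were 0.423 in the early and mid instars, 1.17 in the 5 libraries and 0.391 in LW1.

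When the values were quantile-normalised again over only the features above 0 in every library, vestigial was between 0.846 and 0.943 in LQ, between 0.368 and 0.540 in EQ and between 0.428 and 0.950 in LW. With an offset of 1 the EQ to LQ change was then 0.38 (limma adjusted p = 0.0177), against 0.63 as deposited. This alternative was chosen after seeing the data. Among the features above 0 in every library, counting from the lowest value, vestigial ranked 135, 148 and 148 in LQ1, LQ2 and LQ4. It ranked 50, 13 and 65 in EQ1 to EQ3, and 30, 149 and 118 in LW1 to LW3. The part of the zeros in the rise of vestigial was not tested.

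**Figure D2:**
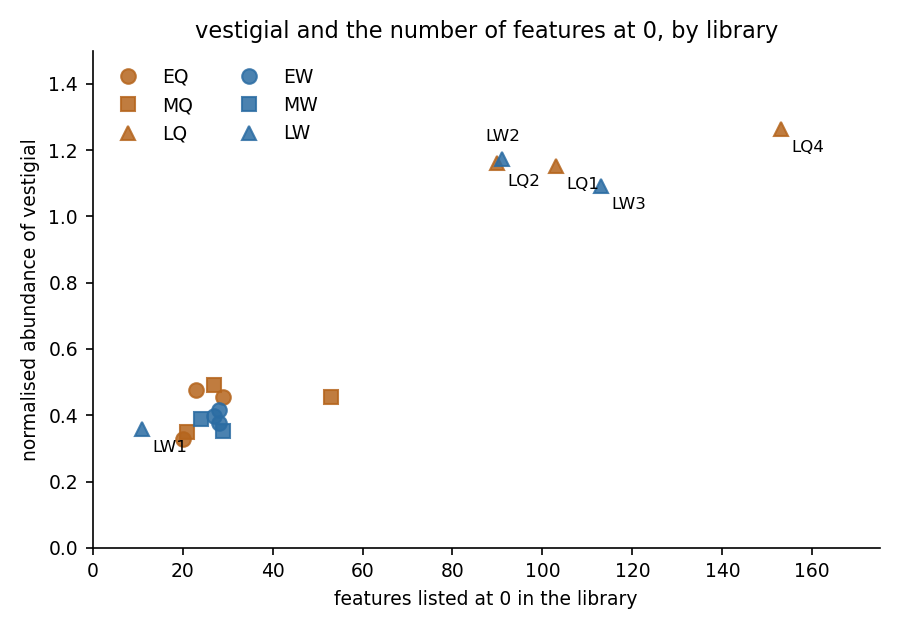
Normalised abundance of vestigial (vertical axis, starting at 0) against the number of features listed at 0 in the same library (horizontal axis), 1 point a library, orange for queen-destined and blue for worker-destined larvae, with circles for early, squares for mid and triangles for late instars. The 5 late-instar libraries with 90 to 153 features at 0 hold the 5 highest values, and LW1, with 11 features at 0, lies with the early- and mid-instar libraries.

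Across the 4 genes, limma called 2 of 4 from EQ to LQ (fat and fat-like, both lower), 2 of 4 from EW to LW (fat lower and fat-like higher), 1 of 4 from MQ to LQ (fat) and 1 of 4 from MW to LW (fat-like), where the shares over all features were 54.3%, 41.7%, 39.1% and 25.1%. None was called from EQ to MQ or from EW to MW, for which 17.8% and 3.66% of all features were. These counts are near the shares of all features. The median log2 fold change over all features was within 0.1 of 0 in every comparison.

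**Figure D3:**
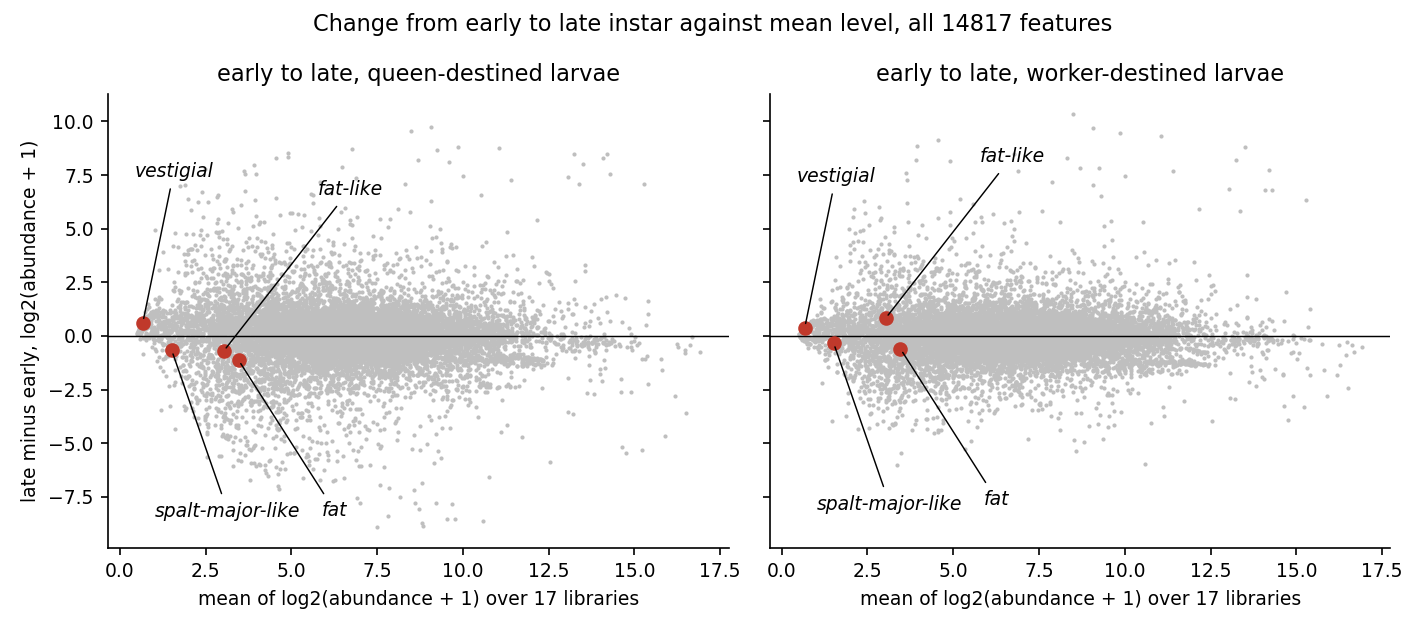
Late minus early abundance on the scale log2(abundance + 1) (vertical axis) against the mean of log2(abundance + 1) over the 17 libraries (horizontal axis), for queen-destined larvae (left) and worker-destined larvae (right). Each grey point is 1 of 14817 features and the red points are the 4 genes, which sit at the low end of the level axis and within the cloud of the other features, with fat at -1.12 on the left and -0.60 on the right.

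The 4 genes did not share 1 pattern. Pearson correlations over the 17 libraries on log2(abundance + 1), which share stage, caste and normalisation and are given as a description, were 0.745 for fat with spalt-major-like and -0.762 for fat with vestigial. Between fat and fat-like the correlation was 0.269, and between fat-like and spalt-major-like 0.438. Vestigial stood at 0.068 with fat-like and at -0.413 with spalt-major-like.

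Of 447 other annotated features with a product name, those most like fat were enhancer of split m7 protein-like (r = 0.949), adenosine receptor A2b-like (0.925) and voltage-dependent calcium channel subunit alpha-2/delta-3 (0.917). Enhancer of split proteins are targets of Notch signalling in flies, and this one went from a mean of 331 in EQ to 96.6 in LQ and from 239 in EW to 105 in LW. Those most like fat-like were protein pygopus-like (0.781), distal antenna-like (0.764) and hemicentin-2 (0.742). Like fat-like, pygopus-like was higher in EQ than in EW (means 42.7 and 27.9) and in MQ than in MW (45.8 and 22.9) and lower in LQ than in LW (37.3 and 46.6). A higher mean in EQ than in EW was shared by every like gene named here and below, so that part is not particular to pygopus-like.

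Those most like spalt-major-like were protein 4.1 homolog (0.86), MOXD1 homolog 1 (0.85) and a glycine transporter 1-like protein (0.828). Those most like vestigial were gamma-aminobutyric acid receptor subunit beta (0.981), a rhomboid protein (0.978) and neuropeptide Y receptor-like (0.976), 3 long loci with means between 0.378 and 0.579 in every early- and mid-instar phenotype, which share its place at the low end of the table. None of these correlations bears a p-value.

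No deposited feature overlapped any of the 4 genes, and each of fat and vestigial had 1 other feature within 5000 bases. The one beside fat, 3447 bases away and without a product name, had means of 424 in EQ, 277 in LQ, 471 in EW and 334 in LW, with log2 fold changes from early to late of -0.59 and -0.47 (limma adjusted p = 0.00128 and 0.00788). The one beside vestigial, 4281 bases away, had means of 16.4 in EQ, 25.8 in LQ, 16.5 in EW and 25.3 in LW, with log2 fold changes of 0.33 and 0.30 (adjusted p = 0.00607 and 0.0138). Over all features 54.3% were called from EQ to LQ and 41.7% from EW to LW. Each neighbour had the sign of the gene it lies beside. Vestigial itself did not pass in the main fit (limma adjusted p = 0.0821 from EQ to LQ and 0.305 from EW to LW).

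Other wing and appendage patterning factors fell more often than they rose as queen-destined larvae grew. Of 11 listed, 4 were called lower and 1 higher from EQ to LQ, and 5 lower and 1 higher from MQ to LQ, with a median log2 fold change in the latter of -0.23 against -0.011 over all features. For that step 18.6% of all features were called lower and 20.5% higher. From EQ to LQ the shares of all features were 24.6% lower and 29.8% higher. The 11 genes started with a median early-instar caste difference of 0.15 towards queen-destined larvae, against -0.024 over all features. These shares are therefore not a matched background for them. In worker-destined larvae 2 were called higher and 2 lower from EW to LW, against 21.3% and 20.3% of all features. POU domain protein CF1A, whose fly counterpart acts in wing veins and tracheae, fell the most in queen-destined larvae, from a mean of 144 in EQ to 35.6 in LQ (log2 fold change -1.56 ± 0.15, SE; adjusted p = 3.04e-06) and from 114 in EW to 52.1 in LW (-0.91; adjusted p = 0.000393).

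Protein sister of odd and bowel, of a zinc finger family known from leg joints in flies, fell from 23.4 in EQ to 9.74 in LQ (log2 fold change -0.55; limma adjusted p = 1.88e-05), and it was lower in LQ than in LW, where it stood at 16.3 (-0.29; adjusted p = 0.0252). Its relative, sister of odd and bowel-like, fell from 16.9 in EQ to 7.14 in LQ (-0.44; adjusted p = 0.00253). Protein big brother-like, whose fly counterpart is a partner of Runt-domain factors, rose from 18.4 in EQ to 43.1 in LQ (0.69; adjusted p = 0.000853) and was higher in LQ than in LW, at 19.6 (0.65; adjusted p = 0.0165). Iroquois-class homeodomain protein IRX-6, of a family that patterns the fly notum and veins, rose from 13.3 in EW to 26.4 in LW (0.47; adjusted p = 0.00193), and its change from EQ to LQ was 0.085 (adjusted p = 0.481), with a caste difference of the change that was not called (-0.38; adjusted p = 0.262). In mid instars 2 of the 11, distal antenna-like (0.53; adjusted p = 0.0114) and abrupt (0.25; adjusted p = 0.0329), were higher in MQ than in MW and none was lower. Over all features 4.72% were called higher, a background not matched to the named genes.

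Among 15 genes of the Notch, Wnt, BMP and EGF pathways, which set disc pattern and growth, 4 were called higher and 3 lower from EQ to LQ, and 6 higher and 2 lower from EW to LW. Over all features 29.8% were called higher and 24.6% lower from EQ to LQ, and 21.3% and 20.3% from EW to LW, a background not matched to the named genes. Enhancer of split m7 protein-like fell in both castes (log2 fold change -1.59, adjusted p = 5.77e-07, and -1.04, adjusted p = 3.51e-05). Neurogenic locus Notch protein, the receptor of that pathway, fell from 37.2 in EQ to 14.1 in LQ (-0.74; adjusted p = 0.00137), and its means were 20.7 in EW and 23.7 in LW (0.086; adjusted p = 0.687). The caste difference of that change was not called (-0.83, adjusted p = 0.129). The early order of Notch, EQ above EW, is the one to which the named genes lean. Sprouty homolog 2, an inhibitor of EGF and FGF signalling, fell in both castes (-0.39, adjusted p = 0.00243, and -0.27, adjusted p = 0.0256). SMURF2, a ubiquitin ligase of BMP signalling, rose in both (0.64, adjusted p = 3.27e-05, and 0.53, adjusted p = 0.000282), and so did pygopus, a nuclear cofactor of Wnt signalling (0.44 in each, adjusted p = 0.000858 and 0.00143).

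In mid instars 4 of these 15 were higher in MQ than in MW and none lower: pygopus, pygopus-like, SMURF2 and enhancer of sevenless 2B, with log2 fold changes from 0.36 to 0.61. Over all features 4.72% were called higher and 8.04% in either direction, and the latter share ran from 1.17% to 12.0% when 1 library was left out. The named genes lean to EQ, which shares colonies with MQ, so these shares are not a matched background. Pygopus-like (-0.83, limma adjusted p = 0.0224) and distal antenna-like (-0.66, adjusted p = 0.0333) passed the test of the difference between castes in the mid to late change. They were the only ones called of these 15 genes and of the 11 wing factors. Both were picked above by correlation with fat-like over these same libraries, so a shared pattern is no support for that of fat-like. Fat-like did not pass that test (adjusted p = 0.0616). Over all features 2.47% passed it.

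Growth control genes rose more often than they fell from early to late instars. Of 12 genes of the Hippo, insulin and related pathways, 7 were called higher and 1 lower from EQ to LQ, and 7 higher and none lower from EW to LW, with median log2 fold changes of 0.51 and 0.53 against 0.030 and -0.0028 over all features. The shares of all features called were 29.8% higher and 24.6% lower from EQ to LQ, and 21.3% and 20.3% from EW to LW. The 12 genes were chosen with earlier results of these data known and from names that lean to EQ. These shares are therefore not a matched background for them. MOB kinase activator-like 1, whose fly counterpart Mats activates the Hippo kinase Warts, rose from 219 in EQ to 662 in LQ (1.51 ± 0.10, SE; adjusted p = 1.78e-07) and from 203 in EW to 471 in LW (1.13; adjusted p = 4.04e-06). It was also higher in LQ than in LW (0.49; adjusted p = 0.0157). Lethal(2) giant larvae protein homolog 1, a cell polarity protein and growth suppressor in flies, rose by 0.76 and 0.62 (adjusted p = 1.03e-05 and 0.000102).

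In the insulin and TOR branch, phosphatidylinositol 3-kinase regulatory subunit gamma rose by 0.97 in queen-destined and 0.95 in worker-destined larvae (limma adjusted p = 6.23e-05 and 0.000159). Ribosomal protein S6 kinase beta-1-like, which promotes growth downstream of TOR, rose by 0.67 and 0.65 (adjusted p = 0.000103 and 0.000276). Charybde-like, whose fly counterpart restrains TOR, rose by 1.59 and 1.30 (adjusted p = 0.000120 and 0.00100). The gene called lower was cyclin-dependent kinase 4-like, which went from 82.1 in EQ to 20.7 in LQ (-1.31; adjusted p = 0.000545). The Hippo effector listed as transcriptional coactivator YAP1 was called in none of the 12 comparisons, with means from 199 to 287.

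**Figure D4:**
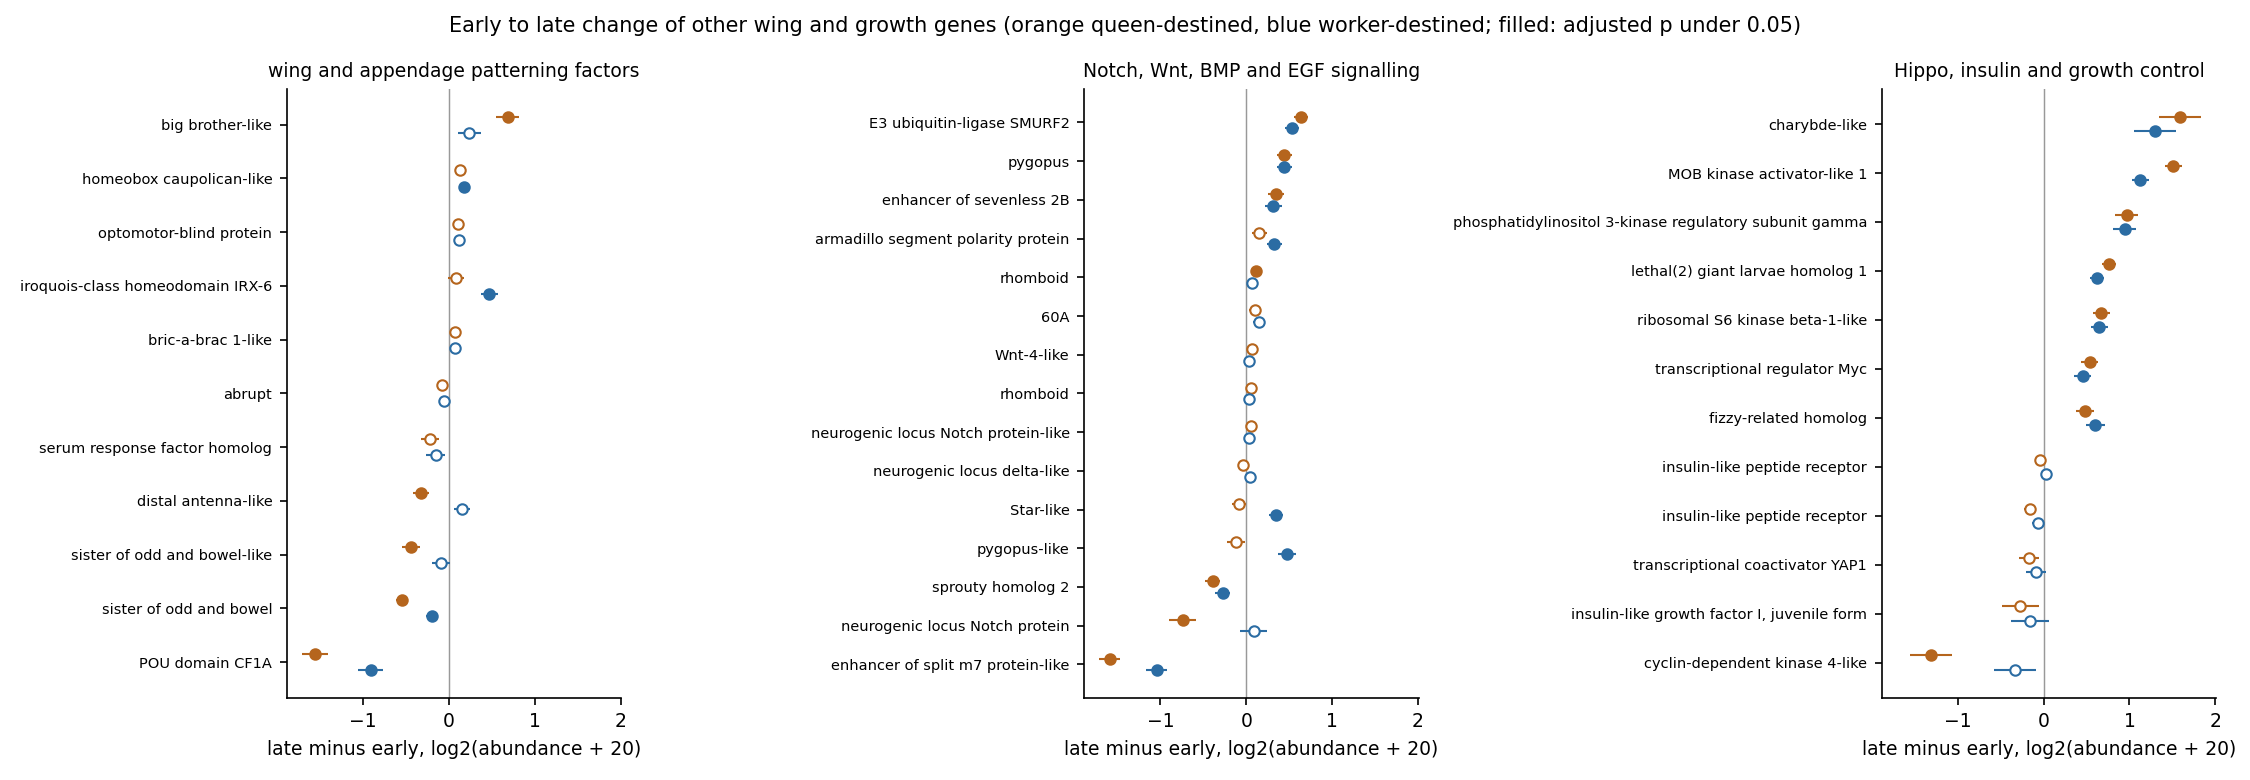
Early to late change on the scale log2(abundance + 20) (horizontal axis, late minus early) of each gene of the 3 lists (rows), orange for queen-destined and blue for worker-destined larvae. Bars give the SE and filled points passed an adjusted p of 0.05. The lists were chosen with earlier results of these data known. In the growth control list 7 of 12 genes are filled on the right of 0 in each caste, while POU domain protein CF1A and enhancer of split m7 protein-like are the lowest of their lists.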

How the data were processed

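The data are mRNA-seq of pooled whole larvae, 17 libraries in 6 phenotypes. Another 3 of the 20 labelled samples are not analysed here. The authors resampled each library to the size of the smallest (LW1), aligned reads with PatMaN to the Bter_1.0 annotation, multiplied counts by 1000/length and quantile-normalised them. The deposited values are this signal, not counts, and depth in reads per value is unknown. Product names come from a supplementary list of the study, of which only the part headed EQ was read, as far as it could be. Members, like genes, lists and tissue markers all depend on these product names. They name 451 features beyond uncharacterised ones.

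limma 3.58.1 in R 4.3.3 was fitted to log2(abundance + 20) with 6 phenotype means and an intensity trend (11 residual degrees of freedom, 2.35 added by the prior), two-sided, and was tested on simulated data. Named genes are the 4 members, features within 5000 bases, the 3 most correlated named features of each member, and up to 5 with the smallest p in each list, with others added after their values were seen. Members and lists were chosen with earlier results of these data known. Within a caste, libraries with the same number came from 1 colony by the study's sample table. Over 14 same-colony pairs the correlation of deviations from phenotype means ran from -0.236 to 0.487, and 10 were over 0.1. Alternatives were offsets of 1 and 50, a filter at a mean of 1, annotated features, variance models, normalisations, replicate blocks and leaving out each library.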

Additional observations from a re-analysis of the deposited data

Results flagged for a closer look

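The cadherin fat-like changed in opposite directions in the castes. From early to late instars every LQ library was below every EQ library while every LW library was above every EW library, and the caste difference of that change was -0.458 on log2(abundance + 20) (limma adjusted p = 0.118). From mid to late instars every LQ library was below every MQ library while every LW library was above every MW library, with a caste difference of -0.472 (limma adjusted p = 0.0616). Both tests of the difference itself missed the threshold in the main fit. The second passed without MQ2, the lowest MQ library (limma adjusted p = 0.0281), and in no other fit without 1 library. The direction was shown by 3 of 3 late-instar libraries in each caste. The early-instar order, EQ above EW, is the one to which the named genes lean. With 2 or 3 libraries a phenotype, no test for a single library apart from its group was run.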

How the results depend on the processing

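The sign of every tested value reported for the 4 genes stayed the same under all alternatives run. For the number of the 4 genes called, an offset of 1 raised it from 2 to 4 from EQ to LQ and from 1 to 3 from MQ to LQ, with or without quantile normalisation again over features above 0. That normalisation alone gave 1 from EQ to MQ (0 before), 2 from MQ to LQ and 1 from EW to LW (2 before). Weights for each library gave 1 for the mid-instar caste difference, 1 from EQ to MQ, 1 from EW to MW, 4 from EQ to LQ, 2 from MW to LW, and 1 for the caste differences of the mid to late and of the early to late change. Without the intensity trend the counts were 0 from MW to LW and 1 from EW to LW. Annotated features alone gave 2 from MQ to LQ and 1 for the caste difference of the mid to late change.

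With the replicate block, the number as a fixed term gave 2 from MQ to LQ, colony as a random term gave 2 there and 1 for the caste difference of the mid to late change, and colony as a fixed term gave 0 from MW to LW. The block changed no other count by more than 1.5 times. The gene added from MQ to LQ was spalt-major-like. In pairs with the same number and different colonies, the correlation of deviations ran from -0.414 to 0.409.

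Leaving out each library in turn gave 0 to 2 genes for the mid-instar caste difference, 0 to 1 from EQ to MQ, 1 to 3 from MQ to LQ, 1 to 3 from EQ to LQ, 0 to 1 from MW to LW, 1 to 2 from EW to LW and 0 to 1 for the caste difference of the mid to late change.

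Counts over all features moved too. For the early-instar caste difference they ran from 0 to 2 without any 1 library (1 with all) and reached 32 with weights for each library. Without any 1 library they ran from 174 to 1772 for the mid-instar caste difference (1191 with all libraries), from 279 to 909 for the late one (674), from 1083 to 3224 from EQ to MQ (2641), from 149 to 725 from EW to MW (543) and from 1290 to 4940 from MW to LW (3720). Weights for each library gave 2693, 2680, 4311, 1954 and 6887, and 9540 from EW to LW (6173). The number block gave 403 for the mid-instar caste difference, and colony as a fixed term gave 821 from EQ to MQ. For the caste differences of change the counts ran from 60 to 1147 (mid to late, 366 with all libraries) and from 24 to 88 (early to late, 82), weights gave 1813 and 1272, and the lowest counts under other settings were 121 and 31. The cause was not tested.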
